A study of Mus musculus with 6 samples.

Results

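The 75 genes described here are named genes of the deposited table with a higher level in macrophages exposed to a zinc alloy scaffold extract, measurable in every untreated library and outside a set of genes left out by name. They were selected by the values themselves. The mean of the 3 G scaffold libraries had to lie above the mean of the 3 Control libraries, and all 6 values had to reach 10. The table lists 345 genes, of which 287 have their higher mean under the extract, and 263 of those carry a name. Of these, 107 reach 10 in every library, and 32 of the 107 were left out by name, among them metallothioneins, classical immediate-early genes, Gadd45 genes, dual-specificity phosphatases, CC chemokines and stress response genes. Because the rule used the contrast between the groups, every difference between the groups given for these genes is a description and carries no test.

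All libraries are from RAW264.7, a mouse macrophage cell line, with total RNA sequenced from 3 Control and 3 G scaffold samples. Control cells are untreated, and the cells of the other group, named Zn in the labels, were kept for 48 h in a diluted extract of a 3D printed Zn-Li alloy scaffold with gyroid (G) pores. The labels put the word control or Zn in the genotype field, although the groups differ in treatment. Nothing in the sources used here says that the 3 samples of a group are separate cultures, so their spread may be technical. Fewer cells of a kind and less RNA per cell cannot be told apart in bulk RNA.

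Macrophages keep many response genes at a low standing level and raise them when zinc, growth factors, adhesion or microbial products reach the cell. Early-response genes are transcribed from factors already present, and they include transcription factors of the AP-1 and Maf families as well as brakes such as the RNA-binding protein tristetraprolin, which promotes decay of inflammatory mRNAs. Another arm of the macrophage programme is the plasminogen system, in which a receptor gathers urokinase on the cell surface.

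The deposited values are normalized counts, meaning reads per gene that the authors divided by a size factor of each library. All 75 genes hold whole reads in every library, and a single read is worth between 0.955 and 1.08 units, so a value of 10 is about 10 reads. The members take 9058, 8524 and 9444 reads in Control replicates 1, 2 and 3, which is 9.50%, 9.60% and 9.36% of the reads over the listed genes. In the G scaffold libraries they take 23199, 22296 and 23593 reads, or 15.4%, 14.9% and 15.1%. The total depth is not analysed here, because the table is the authors' list of changed genes and not the whole transcriptome.

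The differences below are on the scale of log2(normalized count + 1), G scaffold minus Control, with standard errors (SE) from limma fitted over all 345 genes. Of the 75 members, 74 pass the call used for the whole table (log2 difference of 1 or more at an adjusted p of 0.05 or less), and 82.6% of the listed genes pass it. In all 75, each G scaffold value lies above each Control value, as it does in 82.9% of the table. Nothing is read from these shares, since the rule and the authors' own list both rest on this contrast. The exception to the call is S100a11, a calcium-binding S100 protein, with a log2 difference of 0.99 (SE 0.167). The direction rests on the authors' size factors, which the listed genes alone cannot check. Rescaling by TMM factors over the listed genes moves the median of all listed genes by -1.39, and then 24 members stay above 0 and 51 lie below it. Rescaling by column totals moves that median by -0.60 and leaves all 75 above 0. TMM assumes that most genes do not change, while the table lists changed genes, so that rescaling cannot decide the direction.

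Most of the members differ moderately between the groups. Their median log2 difference is 1.29, with a range from 0.99 to 3.06. The median is 2.33 over the 287 genes with a higher mean under the extract and 1.87 over all listed genes, lower ones included. The rule itself bears on these gaps. The 156 named higher genes under the limit in a library have a median of 2.76, and the 32 left out by name 1.94. Only 7 members differ by 2 or more, 13 by 1.5 to 2 and 55 by less than 1.5. The Control means run from 13.1 to 1002 with a median of 43.5, and the G scaffold means from 32.8 to 2073 with a median of 116. The members with the largest differences are not the most abundant: among the 10 with the highest Control mean, none reaches a log2 difference of 1.5. This holds within the members only. The 32 genes left out by name have a median Control mean of 164, and 15 of them differ by 2 or more.

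**Figure D1:**
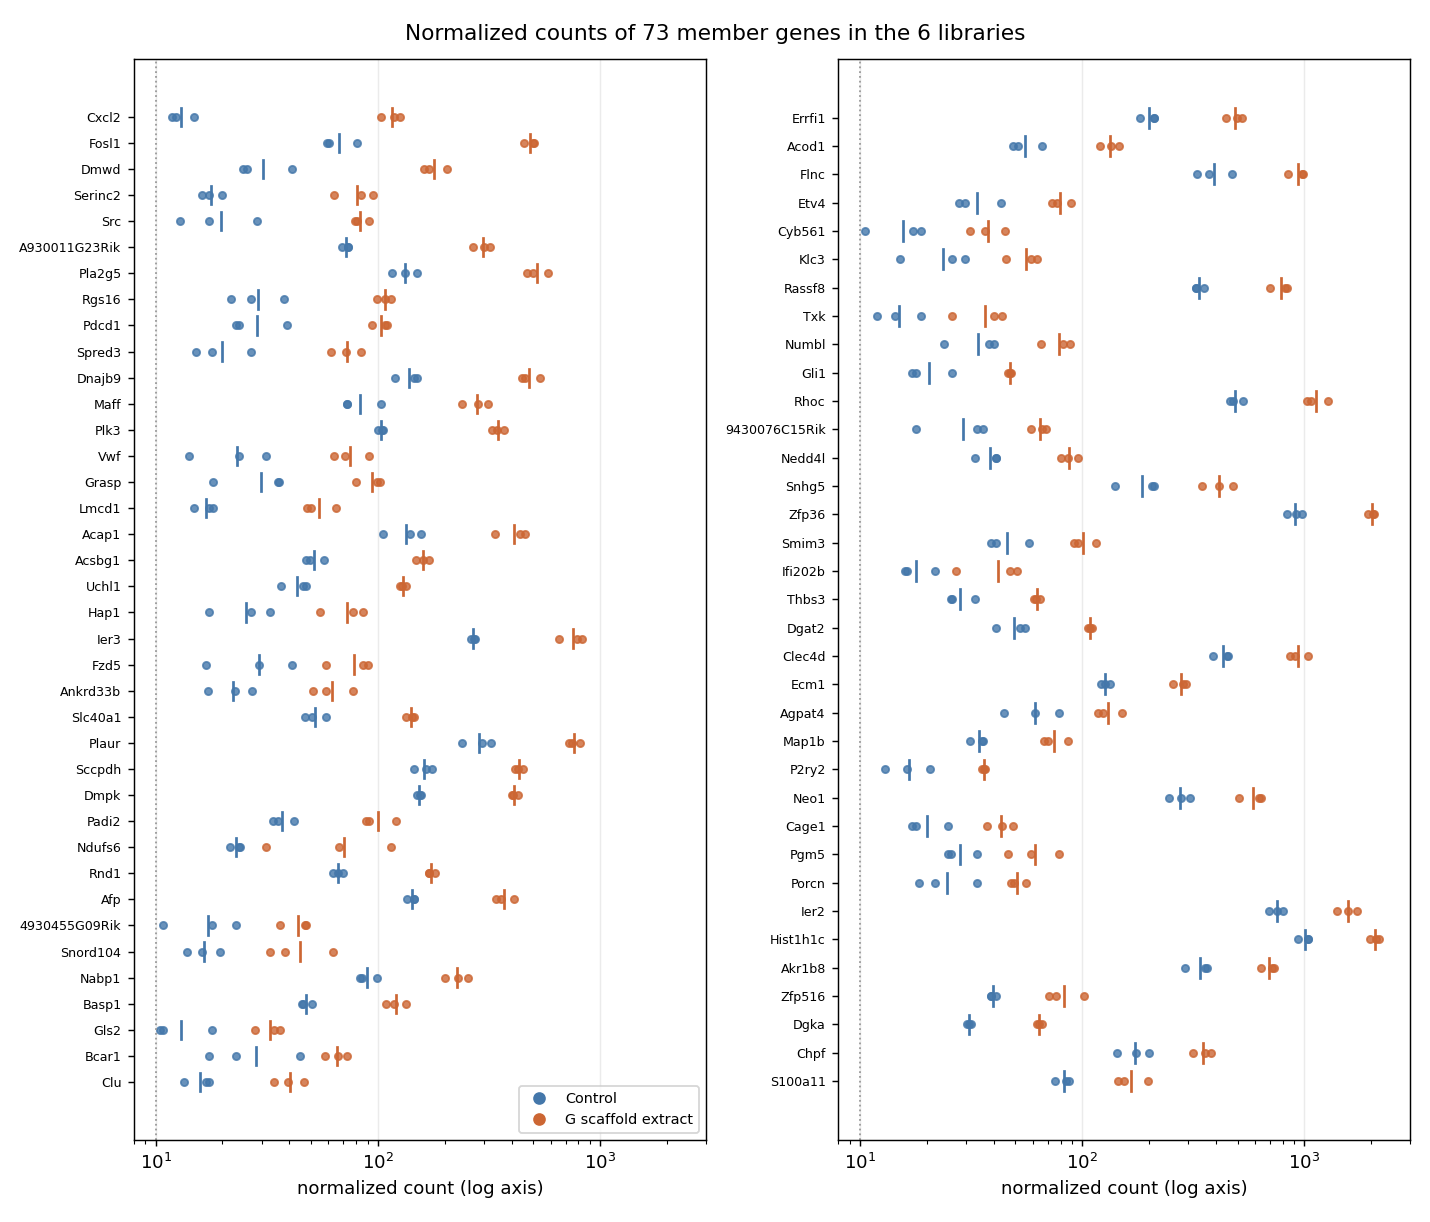
Normalized counts (log axis) of 73 of the member genes in each of the 6 libraries, ordered by log2 difference from Cxcl2 to S100a11, with points for libraries and short vertical lines for group means. The dotted line is the limit of 10. For every gene the 3 G scaffold points lie to the right of the 3 Control points under the authors' size factors. The same holds in 82.9% of the listed genes. Under TMM factors 51 members turn below 0, but TMM assumes mostly unchanged genes and the table lists changed ones.

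**Figure D2:**
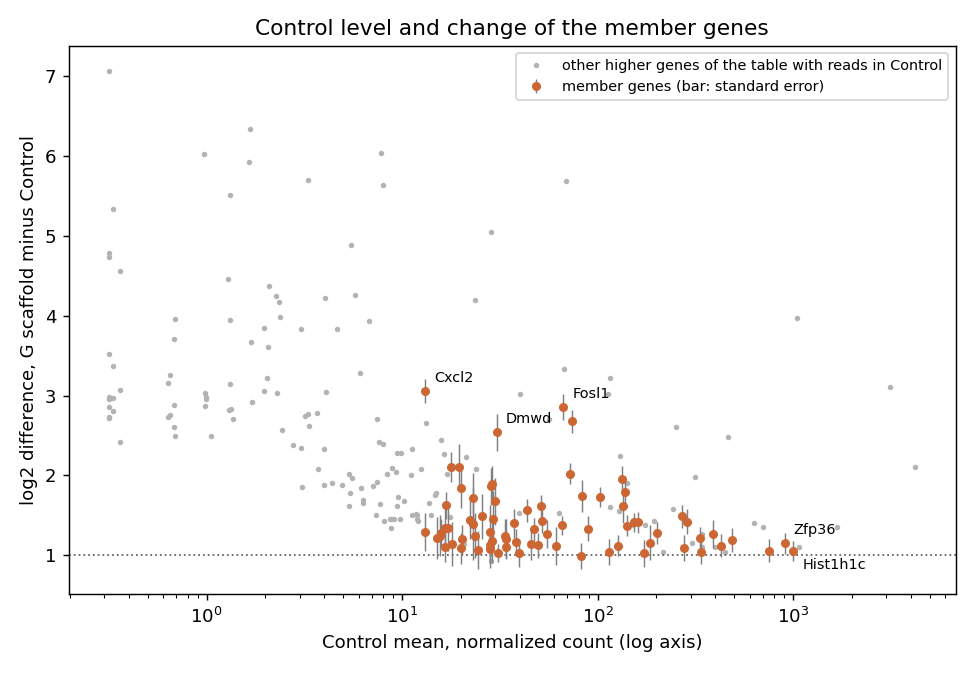
Log2 difference (G scaffold minus Control, with SE bars) against the Control mean (log axis) for the 75 members, beside the other higher genes of the table that have reads in Control. The members lie between 0.99 and 3.06, and the dotted line marks a log2 difference of 1.

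The gap between the groups differs widely among the members. The lowest G scaffold value divided by the highest Control value has a median of 1.92 and runs from 1.25 in Ifi202b to 6.96 in Cxcl2. It is at least 2 in 31 members, between 1.5 and 2 in 36 and below 1.5 in 8.

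Short stretches of promoter sequence are shown for members whose upstream region holds an exact match to a binding sequence of a factor family relevant to zinc, cyclic AMP, AP-1 or NF-kB. They were read from RefSeq promoters in the GRCm38.p6 build, 250 bases before to 50 after each start. Of the 75 members, 53 have a promoter in that set, 2 of them under a newer symbol, giving 68 promoters. The 3 windows with the cyclic AMP response element TGACGTCA, in capitals, belong to Errfi1 (chr4:150854989-150855056, plus strand), Lmcd1 (chr6:112273598-112273665, plus strand) and Maff (chr15:79347461-79347519, plus strand). All windows printed here lie outside the exons of the GENCODE annotation.
Errfi1: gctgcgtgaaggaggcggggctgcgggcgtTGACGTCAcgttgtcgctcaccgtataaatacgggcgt
Lmcd1: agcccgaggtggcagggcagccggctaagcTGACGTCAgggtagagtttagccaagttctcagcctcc
Maff: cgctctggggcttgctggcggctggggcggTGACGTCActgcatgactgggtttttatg
The match lies 51 bases before the start in Errfi1, 130 in Lmcd1 and 29 in Maff. With 9430076C15Rik and Chpf, whose matches are not printed, 5 of 68 member promoters (7.35%) hold this sequence, compared with 1.79% of 32851 promoters in the set. These are counts of letters on both strands, without a test, and do not show that a factor binds there.

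The NF-kB sequence searched was GGG and TTTCC separated by any 2 bases (1.47% of member promoters, 1.63% of all). Among the 53 members with a promoter in the set, only Cxcl2, the member with the largest difference, has a match. The Cxcl2 window at chr5:90903772-90903860, plus strand, holds 2 matches, 97 and 78 bases before the start. The AP-1 sequence TGANTCA, which Fos-Jun family dimers bind, is in 7.35% of member promoters and 7.81% of all. It is shown for Plaur (chr7:24462384-24462450, plus strand), 69 bases before the start, and for Ecm1 (chr3:95739597-95739663, minus strand), 64 bases before it.
Cxcl2: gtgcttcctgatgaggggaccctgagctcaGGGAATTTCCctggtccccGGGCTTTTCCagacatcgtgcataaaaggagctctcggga
Plaur: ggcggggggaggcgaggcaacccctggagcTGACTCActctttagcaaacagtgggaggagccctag
Ecm1: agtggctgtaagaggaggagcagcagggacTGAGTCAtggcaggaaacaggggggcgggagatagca
Since the samples received a zinc alloy extract, the core of the metal response element read by the zinc-sensing factor MTF1 was also searched, as TGCGCNC and TGCACNC. Either form is in 19 of 68 member promoters (27.9%) and in 25.7% of all promoters. Hist1h1c has 2 matches to the first form, 101 and 38 bases before its start in chr13:23738676-23738805 (plus strand), the former on the opposite strand.
Hist1h1c: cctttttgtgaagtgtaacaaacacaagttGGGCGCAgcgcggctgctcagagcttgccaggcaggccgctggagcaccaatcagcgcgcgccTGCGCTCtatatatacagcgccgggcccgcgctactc
The antioxidant response element core TGACNNNGC is in 8.82% of member promoters and 12.4% of all, and the heat shock sequence GAANNTTC in 5.88% and 7.86%.

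**Figure D3:**
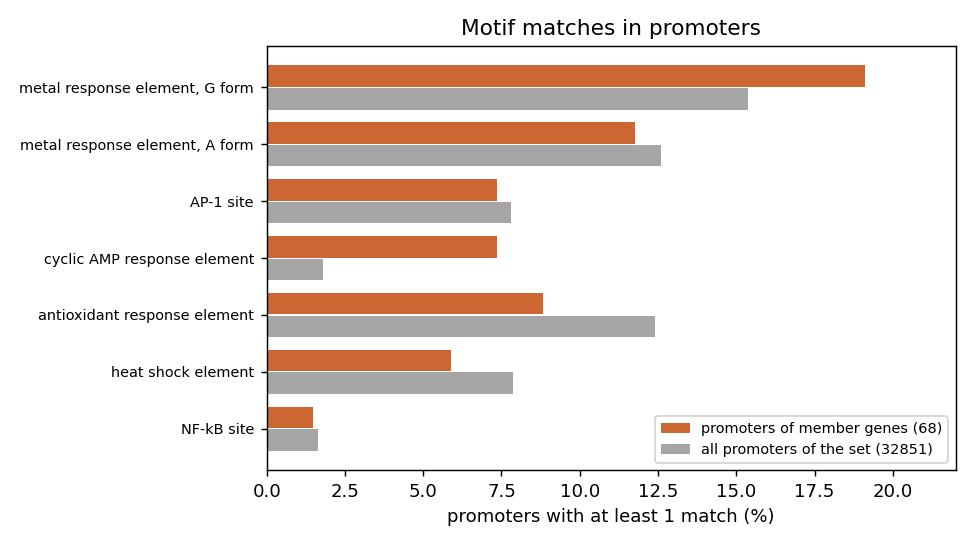
Share of promoters (%) with at least 1 exact match to each sequence on either strand, for the 68 member promoters and all 32851 promoters of the set. The largest relative gap is for the cyclic AMP response element, at 7.35% and 1.79%.

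Immune effectors and receptors make up 7 members, with a median log2 difference of 1.40. Cxcl2, a chemokine that attracts neutrophils, has normalized counts of 14.9, 11.9 and 12.4 in Control and 126, 119 and 104 in the G scaffold libraries. Its lowest treated value is thus 6.96 times its highest Control value, and its log2 difference is 3.06 (SE 0.152). Pla2g5, a secreted phospholipase that releases fatty acids from membranes, has 150.0, 133 and 116 in Control and 585, 470 and 500 in the treated group, a log2 difference of 1.96 (SE 0.163). Pdcd1, the inhibitory receptor PD-1, has 23.8, 39.0 and 22.9 against 93.8, 108 and 110, with Control replicate 2 the highest of its group (log2 difference 1.86, SE 0.232).

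The C-type lectin Clec4d, a macrophage receptor for mycobacterial lipid, is the most abundant of this group, with 446, 388 and 451 in Control and 1040, 859 and 904 in the G scaffold libraries (log2 difference 1.12, SE 0.144). Padi2, an enzyme that turns arginine into citrulline, differs by 1.40, and Acod1, which makes the antimicrobial metabolite itaconate, by 1.26. Ifi202b, an interferon-inducible gene of a family with near-identical copies, has the smallest gap of all members. Its Control values are 15.9, 21.6 and 16.2, and its G scaffold values are 47.4, 27.0 and 50.9, so replicate 2 of the treated group lies close to the Control values. How the authors assigned reads between copies is not given in the sources used here, so its level is uncertain.

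Transcription factors and cofactors make up 8 members. Fosl1, which encodes the AP-1 subunit Fra-1, has 80.5, 60.6 and 59.2 in Control and 498, 456 and 503 in the G scaffold libraries, a log2 difference of 2.86 (SE 0.165). Maff, a small Maf factor without a transactivation domain of its own, has 72.5, 104 and 72.6 against 314, 238 and 283 (log2 difference 1.74, SE 0.202). Control replicate 2 of Maff is high in its group and its G scaffold replicate 2 low. Lmcd1, a LIM-domain cofactor that restrains GATA6, has 14.9, 17.3 and 18.2 against 64.5, 50.2 and 48.0 (log2 difference 1.63, SE 0.169).

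The remaining factors differ by less. Etv4 of the ETS family differs by 1.25, the Hedgehog effector Gli1 by 1.20, and 9430076C15Rik, an older name of the bZIP factor gene Creb5 in RefSeq, by 1.18. The zinc finger gene Zfp516 differs by 1.03.

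Early-response regulators of RNA, cell cycle and survival include the most abundant regulatory members. Zfp36, which encodes tristetraprolin, has 836, 971 and 915 in Control and 2041, 1933 and 2050 in the G scaffold libraries (log2 difference 1.15, SE 0.127). Ier2 and Ier3 are immediate-early genes. Ier2 has 693, 801 and 754 against 1728, 1398 and 1570 (log2 difference 1.06, SE 0.143), and Ier3, a survival regulator, has 273, 263 and 271 against 834, 657 and 788 (log2 difference 1.49, SE 0.142). The treated values of both are lowest in replicate 2, without reaching the Control values.

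Plk3, a stress-responsive polo-like kinase, is among the most even members, with 100.4, 106 and 104 in Control and 326, 345 and 368 in the treated group (log2 difference 1.73, SE 0.123). Errfi1, a feedback inhibitor of the EGF receptor, has 209.7, 209.9 and 182 against 495, 446 and 521 (log2 difference 1.28, SE 0.137). Nabp1, a single-stranded DNA binding protein, differs by 1.33.

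The plasminogen system, matrix and secreted proteins are represented by 8 members. Plaur, the urokinase receptor that gathers this protease on the cell surface, has 238, 324 and 293 in Control and 809, 750 and 723 in the G scaffold libraries (log2 difference 1.42, SE 0.160). Its lowest treated value is 2.23 times its highest Control value.

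Vwf, which encodes von Willebrand factor of platelets and endothelium, has 23.8, 14.1 and 31.5 in Control and 63.5, 71.4 and 91.0 in the treated group (log2 difference 1.71, SE 0.312). It is the 1 gene of a 10-gene endothelial list that is in the table. Its part as a sign of other cells was not tested. Afp, the fetal plasma protein, differs by 1.37, the extracellular chaperone Clu by 1.28 and the thrombospondin Thbs3 by 1.12. The matrix protein gene Ecm1 differs by 1.12 and Chpf, a chondroitin polymerizing factor, by 1.03.

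Intracellular signalling is the largest class with 15 members and a median log2 difference of 1.22. Src, the founding non-receptor tyrosine kinase, has 12.9, 17.3 and 28.7 in Control and 78.6, 91.7 and 80.3 in the G scaffold libraries (log2 difference 2.10, SE 0.288). Its Control values are uneven, but the lowest treated value is 2.74 times the highest of them. Rgs16, which speeds GTP hydrolysis on G proteins, has 21.9, 37.9 and 26.8 against 108, 99.4 and 115 (log2 difference 1.89, SE 0.220). Spred3, an inhibitor of Ras-MAPK signalling, has 17.9, 15.1 and 26.8 against 71.6, 61.7 and 84.2 (log2 difference 1.84, SE 0.243).

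Grasp, a scaffold protein of receptor trafficking, differs by 1.67 (SE 0.293) and Acap1, an Arf GTPase-activating protein, by 1.61 (SE 0.209). Grasp is 35.8, 35.7 and 18.2 in Control, so Control replicate 3 is lower than the others. Fzd5, a Wnt receptor, has 16.9, 29.2 and 41.1 in Control and 58.5, 85.9 and 90.1 in the treated group, a log2 difference of 1.46 (SE 0.350). Bcar1, the Src substrate p130Cas, has 44.7, 17.3 and 22.9 against 66.5, 57.9 and 72.4 (log2 difference 1.29, SE 0.346).

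Rassf8 and Neo1 are the abundant signalling members. Rassf8, a Ras-association protein, has 326, 324 and 354 in Control and 698, 836 and 817 in the G scaffold libraries (log2 difference 1.22, SE 0.136). Neo1, a receptor for netrins and repulsive guidance molecules, has 306, 246 and 277 against 506, 622 and 639 (log2 difference 1.09, SE 0.161). P2ry2, a receptor for extracellular ATP and UTP, has 12.9, 20.6 and 16.2 against 35.3, 36.7 and 36.2 (log2 difference 1.10, SE 0.187). Dgka, which turns diacylglycerol into phosphatidic acid, is 30.8, 30.3 and 31.5 in Control and 62.5, 65.6 and 63.6 in the treated group, with the smallest SE of all members, 0.116, and a log2 difference of 1.03. The other members of this class lie between 1.07 and 1.22, namely the kinase Txk, the Numb relative Numbl, the ubiquitin ligase Nedd4l and the Wnt acyltransferase Porcn.

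The cytoskeleton and cell shape class has 8 members, all with a log2 difference below 1.5. Rhoc, a small GTPase of actin contractility, has 531, 475 and 462 in Control and 1282, 1024 and 1066 in the G scaffold libraries (log2 difference 1.19, SE 0.148). Rnd1, an atypical small G protein that lacks GTPase activity and loosens actin fibres, has 62.6, 66.0 and 69.8 against 169, 169.8 and 180.1 (log2 difference 1.38, SE 0.122). The actin crosslinker Flnc has 473, 373 and 329 against 842, 988 and 971 (log2 difference 1.26, SE 0.179).

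Map1b, which binds microtubules, has 35.8, 31.4 and 35.4 in Control and 67.5, 85.9 and 70.5 in the treated group (log2 difference 1.10, SE 0.150). Dmpk, the kinase of myotonic dystrophy, has 155, 157 and 150 against 405, 425 and 402, a log2 difference of 1.41 (SE 0.117). Dmpk is even across the replicates of each group. The membrane protein Basp1 differs by 1.32 and the kinesin light chain Klc3 by 1.24.

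Metabolism and transport hold 11 members, with a median log2 difference of 1.30. Serinc2, a membrane protein of the serine incorporator family, has 19.9, 17.3 and 16.2 in Control and 83.7, 63.7 and 95.0 in the treated group (log2 difference 2.11, SE 0.190). Acsbg1, an acyl-CoA synthetase, differs by 1.61 (SE 0.138). Slc40a1, ferroportin, which exports iron from macrophages, has 50.7, 58.4 and 46.8 against 134, 143 and 145 (log2 difference 1.42, SE 0.139). Akr1b8, an aldo-keto reductase with close family copies, has 365, 356 and 291 against 713, 640 and 731 (log2 difference 1.04, SE 0.149).

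Ndufs6, a subunit of mitochondrial complex I, is the least even member. It has 23.8, 21.6 and 23.9 in Control and 31.3, 66.6 and 114.5 in the G scaffold libraries, so the lowest treated replicate lies close to Control and the highest far above it (log2 difference 1.39, SE 0.449). Gls2, a glutaminase, differs by 1.30, Cyb561, a transmembrane electron carrier, by 1.25, and Sccpdh, a saccharopine dehydrogenase-like protein, by 1.41. The triglyceride enzyme Dgat2 differs by 1.12, the acyltransferase Agpat4 by 1.11 and Pgm5, a phosphoglucomutase-like protein of adhesion sites, by 1.08.

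Protein folding and turnover has 3 members. Dnajb9, a co-chaperone of the endoplasmic reticulum, has 150.0, 146 and 119 in Control and 446, 459 and 537 in the G scaffold libraries (log2 difference 1.79, SE 0.157). Uchl1, a ubiquitin hydrolase, differs by 1.56, and Hap1, which binds huntingtin, by 1.49. Hap1 has the smallest gap between the groups of these 3, at 32.8, 17.3 and 26.8 in Control against 85.7, 77.2 and 54.8.

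Among the histone H1 and RNA genes, A930011G23Rik has 73.5, 73.6 and 68.8 in Control and 319, 300.0 and 269 in the treated group (log2 difference 2.02, SE 0.130). The table calls it protein-coding, while RefSeq lists it as a long non-coding RNA. Hist1h1c, a linker histone named H1f2 in RefSeq, is the most abundant member by count, with 932, 1040 and 1033 against 2156, 1963 and 2099 (log2 difference 1.05, SE 0.126), and it belongs to a family of very similar genes. The snoRNA host gene Snhg5 differs by 1.16, Snord104 by 1.34 and 4930455G09Rik by 1.34. The last is annotated as antisense, and whether reads were counted by strand is not given in the sources used here, so its reads cannot be told apart from those of the opposite strand.

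The 4 genes in no class hold Dmwd, Ankrd33b, Smim3 and Cage1. Dmwd, a WD-repeat gene, has 24.8, 41.1 and 25.8 in Control and 206, 161 and 170 in the G scaffold libraries, a log2 difference of 2.54 (SE 0.233). It lies 1095 bases from Dmpk on chromosome 7, on the same strand, in the SPRET/EiJ coordinates of the table. Reads that pass from one gene into its neighbour could not be separated here, and the values of the genes are 2.54 and 1.41 on the log2 scale. Ankrd33b differs by 1.44, Smim3 by 1.14 and Cage1 by 1.09.

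**Figure D4:**
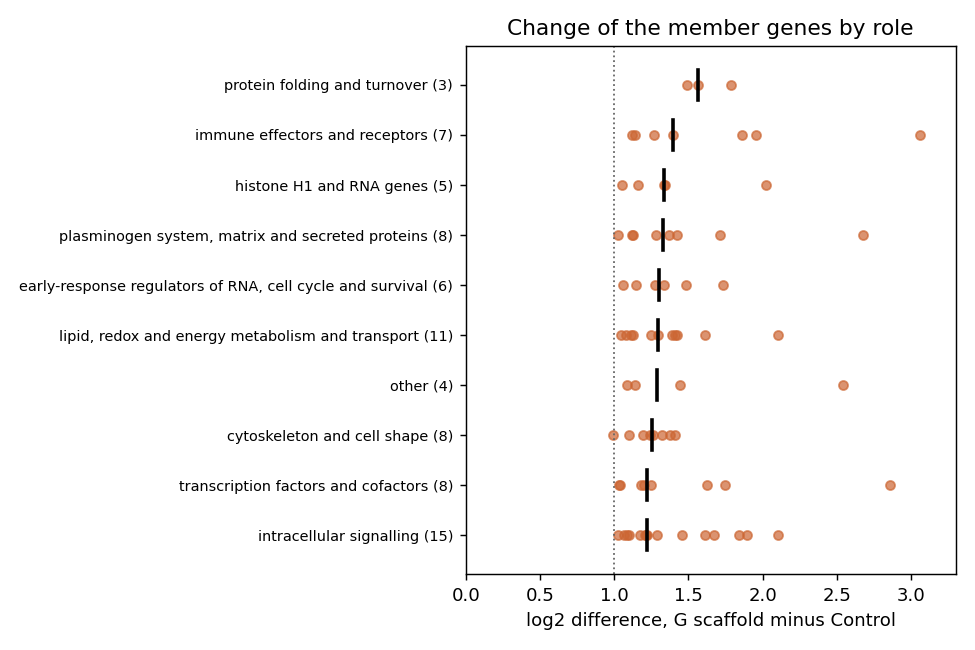
Log2 difference (G scaffold minus Control) of each member by class, with the number of members in parentheses and a vertical bar at the class median. Class medians lie between 1.22 and 1.56 under the authors' size factors, and the dotted line marks a log2 difference of 1.

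Per kb of gene length, so that genes can be compared with each other, the median member has 20.4 units in Control and 50.9 in the treated group. The highest levels per kb are those of Hist1h1c, from 640 to 1325, followed by Zfp36 from 506 to 1120, Ier2 from 496 to 1037 and Rhoc from 337 to 774. The lowest are 9430076C15Rik, from 1.21 to 2.68, Txk from 1.38 to 3.36 and Vwf from 1.45 to 4.70. These use the gene length column of the table, whose definition is not given in the sources used here.

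The members were also set against gene lists of known pathways. These lists hold none of the genes left out by name that are in the table, so their counts cover only part of it. Of the early-response list of 40 genes, 8 are in the table, all 8 called higher, and 5 of them are members (Fosl1, Ier2, Ier3, Maff and Zfp36). Of 48 genes of MAPK, Ras and growth factor signalling, 10 are in the table and all 10 are called higher, with Errfi1, Rgs16 and Spred3 among the members. Of 74 genes of actin and cell shape, 7 are in the table, all called higher, with Flnc, Map1b, Rhoc and Rnd1 as members. These 3 lists were chosen with earlier results known, and 82.6% of the table is called higher, so no list is read as set apart.

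The other lists give few members each. They are Plaur from 72 adhesion genes (9 in the table, 8 called higher and 1 lower), P2ry2 from 65 calcium and cyclic nucleotide genes (5, 4 higher and 1 lower), Cxcl2 from 44 NF-kB genes (4, all higher) and Akr1b8 from 40 NRF2 genes (2, both higher). Dnajb9 comes from 34 chaperone genes, Slc40a1 from 38 genes of metal handling and Plk3 from 36 p53 targets, and each of these lists has 2 genes in the table, both higher. The metal genes Mt1, Mt2 and Slc30a1 (log2 difference 3.10, 3.97 and 1.10) are also in the table, but were left out by name and are not on these lists. The same holds for the chaperone genes Dnajb1 and Hspa2 (1.35 and 1.53) and for Hmox1 (1.36). Of 35 macrophage identity genes, Clec4d is a member and Mpeg1, a pore-forming protein, is called lower. No member is on the lists of ATF4 targets (0 of 36 in the table), JAK-STAT signalling (2 of 50), interferon response (1 of 35), lysosome (1 of 39) or sterol and lipid handling (2 of 45). The stress response genes Chac1, Ddit3 and Trib3 (log2 difference 1.60, 1.38 and 1.04) are in the table. So are the interferon-stimulated genes Isg15, Ifit1 and Oasl1 (4.37, 2.79 and 1.58). All of these were left out by name and are not on the lists, so the list counts do not describe the whole table. The summed values of Clec4d and Mpeg1 are 9105 to 10342 in Control and 5201 to 5652 in the treated group. Most of the sum is Mpeg1, with means of 9263 in Control and 4530 in the treated group. Clec4d goes the other way, with means of 429 and 934, so the sum is not read as a level of macrophage identity.

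Few genes of the marker lists used for other cell types are in the table, and genes outside these lists were not counted. None of the 9 B cell, 13 T and natural killer cell or 12 neutrophil and mast cell genes listed is in it. The epithelial list has 1 of 12 in it, Grhl2, at 0 in Control and 40.3 to 53.8 in the G scaffold libraries, the osteoblast and fibroblast list 1 of 15, Col1a1, at 0 and 4.89 to 8.68, and the neuron list 1 of 10, Tubb3, at 0 to 0.955 and 2.94 to 14.5. A gene that is not in the table is not known to be absent from the cells. Their part in the values of the members was not tested.

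The spread between replicates is a property the rule did not use, apart from the limit of 10. The median coefficient of variation over the 3 replicates is 14.2% among the Control libraries and 10.7% among those with extract. Over all listed genes these medians are 21.7% and 14.9%. The variance is more than 3 times what counting alone gives in 18 members (24.0%) in Control and 30 (40.0%) under the extract. The shares are 22.3% of the 292 listed genes with reads in Control and 28.3% of the 343 with reads under the extract. Both measures depend on the level, and the median G scaffold mean is 116 in the members and 42.6 over all listed genes. The members and the table are therefore not compared at like levels. The widest spreads are 59.1% in Ndufs6 (G scaffold) and, in Control, 51.1% in Bcar1, 41.6% in Fzd5, 41.4% in Src and 37.8% in Vwf. The most even genes, by the larger of both group values, are Dgka at 2.46%, Dmpk at 3.06%, Rnd1 at 5.41%, Hist1h1c at 6.02% and Plk3 at 6.14%. In Dgka, Dmpk and Rnd1 the variance is below what counting alone gives in both groups, at 0.012 and 0.039 times in Dgka. Plk3 is below it in Control only, at 0.080, and Hist1h1c above it in both, at 3.60 and 4.82. Spread below counting noise over 3 libraries is not read as a property of a gene. The highest values are spread over the libraries. In Control, replicates 1, 2 and 3 hold the highest value of 23, 34 and 18 members, and in the G scaffold group of 31, 12 and 32.

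**Figure D5:**
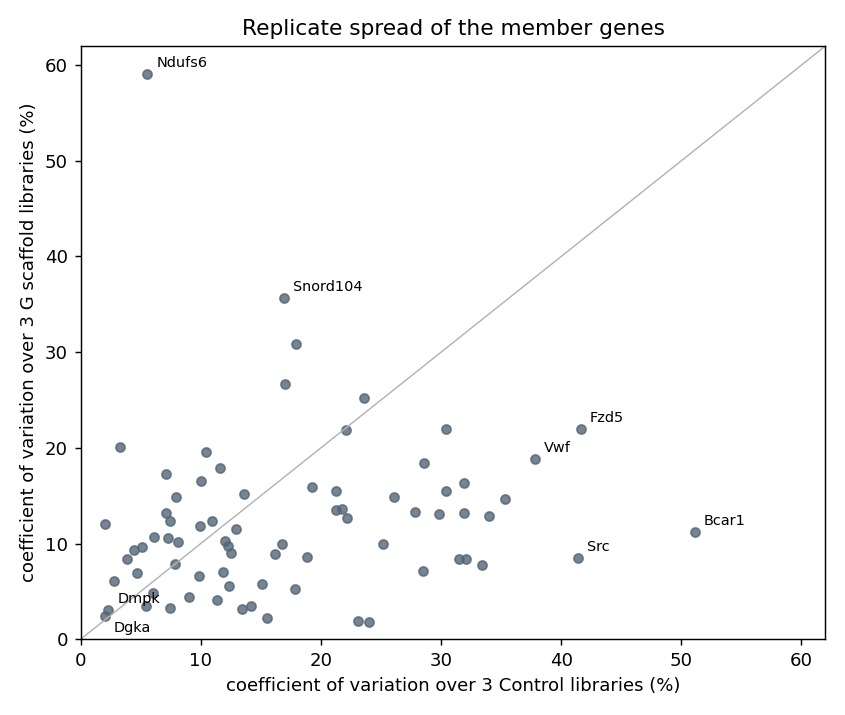
Coefficient of variation (%) over the 3 Control and the 3 G scaffold libraries for each member, with the line of equality. Ndufs6 stands out on the G scaffold axis at 59.1% and Bcar1 on the Control axis at 51.1%.

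The members lie on 19 chromosomes. Apart from Dmwd and Dmpk, the neighbouring pairs within 1000000 bases lie farther apart, at 406838 bases for Afp and Cxcl2, 337448 for Dmpk and Klc3, 574084 for Gls2 and Dgka, 582032 for Cyb561 and Snord104 and 872715 for Zfp36 and Spred3. By biotype, 72 members are protein-coding. Among the protein domains given in the table, kinase domains are in Plk3 and Dmpk and, in the tyrosine form, in Src and Txk, the Ras domain is in Rnd1 and Rhoc, and bZIP domains are in Fosl1, 9430076C15Rik and Maff. For 40 members the table gives no domain.

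The limit of 10 lies within a continuous range of values. Just inside it are Cyb561 and Gls2, both with a lowest value of 10.5, and 4930455G09Rik at 10.8. Just outside are Arl4d at 9.94 and Ggt7 and Aplp1, both at 9.55.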

How the data were processed

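RNA from RAW264.7 cells was sequenced in 3 Control and 3 G scaffold samples, grouped by their labels. The deposited signal is the normalized count, which the authors made by dividing the reads of each gene by a size factor per library. Of the values, 100% (of 2070) came out as whole reads within 0.01 reads. The genome builds named in the submitters' processing notes are GRCm38 and mm10, whereas the gene identifiers of 329 of 345 genes, and of all 75 members, are those of SPRET/EiJ, and positions are in its coordinates. The deposited table also holds other columns, among them gene length, which was used for values per kb. The columns with the authors' own fold change, p-value and adjusted p-value, and the group means, were not used. The aligner and counter are not given in the sources used here.

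The test was limma 3.58.1 (R 4.3.3) on log2(value + 1) over all 345 genes, with a single term for group and p-values adjusted by Benjamini-Hochberg. It was tested on simulated data. It gives the share of calls and the SE, and no p-value is given for a member. edgeR 4.0.16 and DESeq2 1.42.0 on recovered reads were alternatives, beside other scalings, pseudocounts and filters and the omission of single libraries. No library was taken for a duplicate, since within a group they differ beyond counting noise (chi-square per degree of freedom 2.13 to 7.93). The members and the lists were chosen with earlier results of these data known. Genes are named by rule: the 25 largest log2 differences, the 10 highest Control means, members on a list, 3 genes on each side of the limit of 10, and the 5 widest and 5 narrowest spreads. Every other member is given with its class, except 2 members that are not reported here. Promoter windows for printing were limited to those outside GENCODE exons, a limit chosen after the matches were seen. Python 3.11.15 with pandas 2.3.3, numpy 2.4.6 and matplotlib 3.10.9 was used.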

Additional observations from a re-analysis of the deposited data

How the results depend on the processing

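The counts of calls and the member median depend mainly on the scaling. Over the table, 285 genes are called higher and 55 lower. Under TMM factors over the listed genes 135 are higher, with a filter at 10 in every library 115, and with a mean of at least 100, 68 higher and 23 lower, since fewer genes are then tested. With the authors' size factors, edgeR and DESeq2 on recovered reads each call 287 higher and 58 lower, which is every listed gene. The authors' list was already filtered on this contrast, so these calls carry no support. The member median of 1.29 is -0.14 under TMM factors, 0.66 under column totals and 1.15 with a pseudocount of 10, and leaving out single libraries gives 1.24 to 1.34. The number of members called is 4 under TMM factors, 17 under column totals and 54 with a pseudocount of 10. It is 66 without Control replicate 1 and 69 without Control replicate 2, and 70 to 73 without any other library. TMM assumes that most genes do not change, while the table lists changed genes. The number of members is 98 at a limit of 5, 51 at 20, 78 with at least 10 reads in every library, and 75 to 80 without single libraries.

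Under TMM factors 51 members turn below 0. Those named are Slc40a1 -0.043, Plaur -0.060, Sccpdh -0.067, Dmpk -0.068, Padi2 -0.060, Ndufs6 -0.053, Rnd1 -0.094, Afp -0.11, 4930455G09Rik -0.086, Snord104 -0.093, Nabp1 -0.14, Basp1 -0.14, Gls2 -0.12, Bcar1 -0.16, Clu -0.14, Errfi1 -0.20, Acod1 -0.20, Flnc -0.22, Etv4 -0.21, Cyb561 -0.18, Klc3 -0.20, Rassf8 -0.26, Txk -0.20, Numbl -0.25, Gli1 -0.24, Rhoc -0.29, 9430076C15Rik -0.27, Nedd4l -0.29, Snhg5 -0.32, Zfp36 -0.34, Smim3 -0.32, Ifi202b -0.29, Thbs3 -0.32, Dgat2 -0.34, Clec4d -0.36, Ecm1 -0.36, Agpat4 -0.35, Map1b -0.36, P2ry2 -0.32, Neo1 -0.39, Cage1 -0.35, Pgm5 -0.37, Porcn -0.37, Ier2 -0.42, Hist1h1c -0.43, Akr1b8 -0.44, Zfp516 -0.43, Dgka -0.43, Chpf -0.45 and S100a11 -0.48. This rescaling moves the median of all listed genes by -1.39 and the member median from 1.29 to -0.14. The signs follow that common shift over a table of changed genes and are not read as results about single genes.

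With the replicate number as a block, 284 genes are called higher and 55 lower, and the member median is 1.29. Same-numbered libraries correlate in their deviations from the group means at 0.0047, -0.035 and -0.071 over 345 genes, and not every library correlates best with its own number. No pairing by number was seen in these values. With 3 libraries per group they cannot exclude one.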
